A study of Mus musculus with 6 samples.

Results

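Zinc finger genes were read as the protein-coding rows whose symbols begin with Zfp, Zbtb, Zscan, Zkscan, Zc3h or Zcchc followed by a digit. This naming rule, which used no measured value, found 112 of the 3201 rows of the expression table, comprising 95 Zfp, 7 Zbtb, 6 Zscan, 3 Zc3h and 1 Zkscan genes, and no Zcchc gene. The table came from RNA-seq of livers of 6 mice. Its header names no unit, and every value was taken as a TPM, a transcript level corrected for exon length and library size. The 3 livers labelled IR were from Fgf18 f/f mice, whose floxed Fgf18 gene is intact. The 3 livers labelled 18KO were from Fgf18△HSC mice, in which a Cre driven by the GFAP promoter removes Fgf18 with the aim of deleting it in hepatic stellate cells, the vitamin A-storing cells beside the sinusoids. All 6 animals were male mice on a C57BL/6 background, and all had 1 h of partial warm liver ischemia followed by 6 h of reperfusion, so no uninjured liver was compared and the labels give no age. For the control livers the genotype label carries the injury rather than an allele, and Fgf18 f/f was taken from the methods of the study. Fgf18 itself was not analysed here, so no check of the genotypes on that gene was made.

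Zinc finger proteins hold a zinc ion with cysteine and histidine residues and so fold small loops that read nucleic acids. In the Zfp family most members carry an array of C2H2 fingers that bind DNA, and many add a KRAB domain, which recruits the corepressor Trim28 and silences transposons and nearby genes. Zbtb proteins join C2H2 fingers to a BTB domain that pairs them and draws in corepressors, and Zscan and Zkscan proteins carry a SCAN domain that pairs them with one another. Zc3h proteins and Zfp36 use CCCH fingers to bind RNA, and in injured liver Zfp36 and Zc3h12a are known for shortening the life of cytokine mRNAs.

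The table had already been limited by the authors to genes differing between these same livers, with the smallest absolute log2 fold change at 1.0 and every unadjusted p under 0.05. A call in the present comparison therefore describes the size of a difference against the spread of the livers and is no independent evidence of it. Of 495 annotated protein-coding genes with such names in the GENCODE M21 annotation, 22.6% were rows of the table, against 10.8% of the other 21456 protein-coding genes. By family the share was 31.6% of 19 Zscan, 24.1% of 394 Zfp, 17.6% of 17 Zc3h, 17.1% of 41 Zbtb, 9.09% of 11 Zkscan and 0% of 13 Zcchc genes. Rows with these names but another biotype, which were Zfp133-ps, Zfp862-ps, Zfp422-ps and Zscan30, number 4 and lie outside the rule.

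Promoter windows were available for 97 of the 112 genes in the RefSeq promoter table of GRCm38.p6, each of 300 bases about a transcript start. The 6 below are shown because they belong to the most abundant RNA-binding members, to the gene that fell most and to the 3 called genes with the largest rise whose window held an ETS motif. They are written 5′ to 3′ on the strand of the gene. Capitals mark any of the 8 motifs searched, on either strand, and 2 motifs that overlap run together. The 6 genes and the motifs were chosen after the calls had been seen. Zfp36 lies on the minus strand at chr7:28379179-28379478, Zc3h12a on the minus strand at chr4:125127832-125128131 and Zfp949 on the plus strand at chr9:88547770-88548069. The windows of Zfp60 at chr7:27731159-27731458, Zfp59 at chr7:27838334-27838633 and Zfp160 at chr17:21008691-21008990 are all on the plus strand.
Zfp36: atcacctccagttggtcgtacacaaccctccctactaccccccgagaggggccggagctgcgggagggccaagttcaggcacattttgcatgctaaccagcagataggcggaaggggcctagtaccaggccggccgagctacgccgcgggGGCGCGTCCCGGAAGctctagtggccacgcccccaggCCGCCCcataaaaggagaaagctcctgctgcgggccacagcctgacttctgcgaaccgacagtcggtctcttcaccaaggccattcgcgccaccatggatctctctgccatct
Zc3h12a: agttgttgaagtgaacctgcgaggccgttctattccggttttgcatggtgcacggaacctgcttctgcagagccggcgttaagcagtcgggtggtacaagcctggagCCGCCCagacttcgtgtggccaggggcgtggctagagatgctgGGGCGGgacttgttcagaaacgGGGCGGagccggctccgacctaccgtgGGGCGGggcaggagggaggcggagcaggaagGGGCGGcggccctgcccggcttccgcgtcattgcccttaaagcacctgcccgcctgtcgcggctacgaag
Zfp949: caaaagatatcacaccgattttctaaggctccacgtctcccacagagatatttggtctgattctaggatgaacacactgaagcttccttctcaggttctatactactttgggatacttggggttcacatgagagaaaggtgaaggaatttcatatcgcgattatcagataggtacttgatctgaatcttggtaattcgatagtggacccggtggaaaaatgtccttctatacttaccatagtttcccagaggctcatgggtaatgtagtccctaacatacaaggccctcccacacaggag
Zfp60: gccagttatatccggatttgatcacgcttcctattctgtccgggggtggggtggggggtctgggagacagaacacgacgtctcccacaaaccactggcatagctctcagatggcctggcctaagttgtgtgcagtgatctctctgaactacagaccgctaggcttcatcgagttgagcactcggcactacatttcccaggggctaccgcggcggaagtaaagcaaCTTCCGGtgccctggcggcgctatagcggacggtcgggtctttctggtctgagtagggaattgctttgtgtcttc
Zfp59: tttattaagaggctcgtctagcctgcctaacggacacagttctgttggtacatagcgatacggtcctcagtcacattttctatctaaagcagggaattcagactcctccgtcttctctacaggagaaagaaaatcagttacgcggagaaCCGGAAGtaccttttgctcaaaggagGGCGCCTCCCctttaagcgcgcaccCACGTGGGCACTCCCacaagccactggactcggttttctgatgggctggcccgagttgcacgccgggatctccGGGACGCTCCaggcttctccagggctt
Zfp160: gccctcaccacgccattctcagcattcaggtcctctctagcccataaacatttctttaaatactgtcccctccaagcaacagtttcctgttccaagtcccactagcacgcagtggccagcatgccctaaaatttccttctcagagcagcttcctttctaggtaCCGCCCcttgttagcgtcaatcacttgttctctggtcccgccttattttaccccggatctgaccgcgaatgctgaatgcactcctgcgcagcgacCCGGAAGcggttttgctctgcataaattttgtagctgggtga

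In these windows the ETS motif, CCGGAAG or its reverse complement, occurs once in Zfp36, Zfp59, Zfp60 and Zfp160, and Zc3h12a holds 5 GC boxes (GGGCGG). The RefSeq start of Zfp36 lies 1025 bases from the outermost start in GENCODE. No searched motif was found in the window of Zfp949, which has 43.3% G and C and 6 CpG, against 65.7% and 27 CpG for Zc3h12a. Over all matched genes the ETS letters were in a window of 31 of 97 zinc finger rows (32.0%), of 21.5% of 311 zinc finger genes outside the table, of 10.01% of 1729 other protein-coding rows and of 13.4% of 16522 protein-coding genes. ETS letters were found for 29 of 89 higher and 2 of 8 lower genes, the latter being Zfp217 and Zfp36. The TATA box (TATAAA) was found for 6.19% of the zinc finger rows and 14.3% of all protein-coding genes, and the NRF1 element for 11.3% and 7.45%. The antioxidant response element (TGACNNNGC), the letters bound by Nrf2, was found for 15.5% and 15.02%. The remaining motifs were the CRE (TGACGTCA) for 4.12% and 2.64%, the E-box (CACGTG) for 6.19% and 9.18%, the GC box for 49.5% and 51.0% and the kappaB element for 30.9% and 26.0%. Among the 311 zinc finger genes outside the table the shares were 4.5% for the CRE, 8.04% for the E-box, 13.2% for the antioxidant response element, 50.8% for the GC box, 9.65% for the TATA box, 9.32% for NRF1 and 27.3% for kappaB. Among the 1729 other protein-coding rows the shares were 2.2% for the CRE, 9.37% for the E-box and 57.5% for the GC box. Those rows gave 15.2% for the antioxidant response element, 13.9% for the TATA box, 4.97% for NRF1 and 32.1% for kappaB. These matches are counts of letters in a window and do not show that a factor was bound.

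The zinc finger genes were mostly higher in 18KO livers. The difference was positive for 102 of the 112 and negative for 10, where 65.1% of all rows were higher and 34.9% lower. By limma on log2(TPM + 0.1), fitted over all rows, a gene was called where the adjusted p (Benjamini-Hochberg) was under 0.05 and the absolute log2 fold change above 1. By this rule 63 rose (56.2%) and 8 fell (7.14%). The background over all 3201 rows was 41.6% called higher and 30% called lower, or 71.7% in either direction. By the adjusted p alone 100 were higher and 10 lower, where the background was 62.6% and 34.6%. All 3 18KO livers lay above all 3 IR livers for 101 genes and below them for 10, where the background was 62% and 34.3%. Zfp442 was the exception, with 0.0128, 0.0614 and 0.0380 TPM in the IR livers and 0.313, 0.0224 and 0.242 TPM in the 18KO livers. The median log2 fold change of the 112 genes was 1.03, with a range from -2.17 to 2.15, and the median over all rows was 0.88.

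The split between higher and lower depended on the scale of the livers. When each liver was rescaled by its median ratio over the rows of the table, 2 genes rose (Zfp7 and Zfp251) and 10 fell, so that the higher share of the called genes went from 88.7% to 16.7%, and over all rows from 58.1% to 20.1%. That is 1.79% called higher and 8.93% called lower, beside 8.78% and 34.8% of all rows. With a pseudocount of 1 in place of 0.1 TPM, 1 rose (0.893%) and 5 fell (4.46%), beside 8.31% and 17.7% of all rows. In both settings the share called higher thus lay below that of all rows, where on the deposited scale it lay above. Rescaling shifted the median of all rows by -0.68 on the log2 scale and left that of the zinc finger genes at 0.28 beside 0.19 for all rows. The 10 lower genes stayed lower, with log2 fold changes between -3.17 and -1.88. Another 99 genes stayed above 0, but only 2 of them were called. Several of the 99 showed almost no difference, such as Zfp688 (0.0025 ± 0.33 SE), Zfp146 (0.024 ± 0.20 SE) and Zc3h4 (0.033 ± 0.19 SE). Zfp462, Zfp646 and Zfp994 came to log2 fold changes of -0.022, -0.0050 and -0.0021, each smaller in size than its SE. The median ratio was itself taken from a table in which most rows were higher, and which scale fits these livers was not tested.

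**Figure D1:**
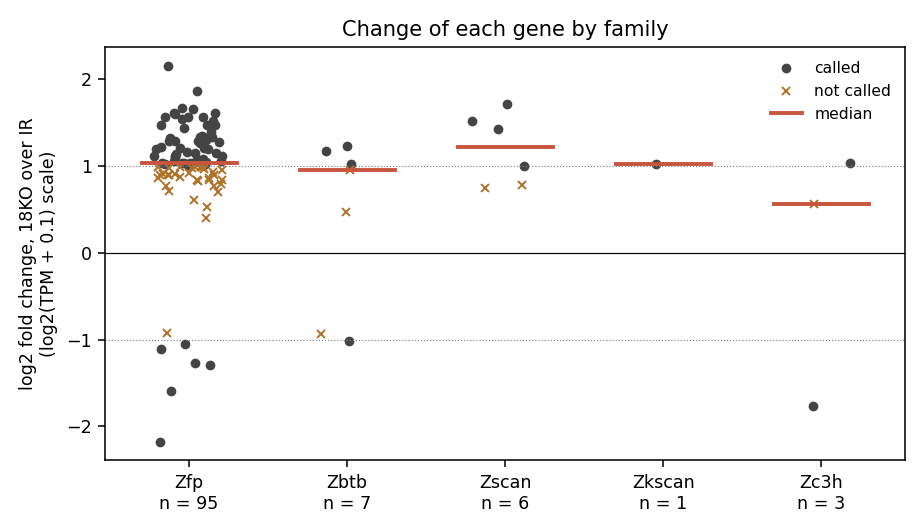
Log2 fold change of each of the 112 zinc finger genes, 18KO over IR on the log2(TPM + 0.1) scale, by family. Black points were called, brown crosses were not and the red lines are family medians, and the negative values are 7 Zfp, 2 Zbtb and 1 Zc3h genes.

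The direction differed with the level of the gene. In the IR livers the median of the 112 genes was 0.212, 0.258 and 0.261 TPM, and in the 18KO livers it was 0.607, 0.753 and 0.642 TPM, so the groups did not overlap. In the class whose mean over the 6 livers did not exceed 1 TPM, 87 in number, 85 were higher and 2 lower, where the other protein-coding rows of that level were 1083 and 143. Between 1 and 10 TPM, 17 were higher and 6 lower, beside 378 and 332 other rows. Both genes above 10 TPM, Zfp36 and Zc3h12a, were lower, beside 342 of 393 other rows. Of the 10 most abundant zinc finger genes 6 were lower, and the most abundant gene that was higher had a mean of 3.86 TPM.

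**Figure D2:**
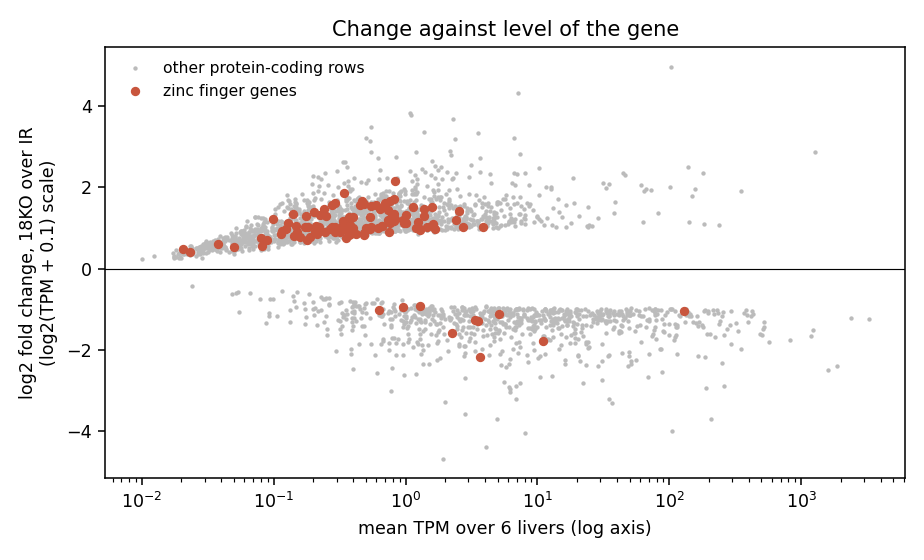
Log2 fold change, 18KO over IR, against the mean TPM of the 6 livers on a log axis. Red points are the 112 zinc finger genes and grey points the other 2329 protein-coding rows, and the red points above 0 end at 3.86 TPM.

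The summed level depended on Zfp36 and on the scale. Together the 112 genes held 257, 255 and 257 TPM in the IR livers and 204, 180.3 and 189 TPM in the 18KO livers. Without Zfp36 the sum was between 79.4 and 84.6 TPM in the IR livers and between 102.5 and 110.5 TPM in the 18KO livers. After rescaling this sum was lower in the 18KO livers, between 75.6 and 98.3 against between 121.6 and 147. The 102 higher genes alone summed to 31.7, 34.5 and 37.6 TPM in the IR livers and to 88.6, 95.5 and 86.2 TPM in the 18KO livers, and after rescaling to between 55.7 and 59.7 and to between 63.6 and 85.0. Within a group the SD had a median of 23.1% of the mean in the IR livers and 15.4% in the 18KO livers.

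The largest falls in TPM were those of the RNA-binding genes Zfp36 and Zc3h12a. Zfp36 (chr7:28376784-28380253, minus strand, GRCm38), or tristetraprolin, binds AU-rich elements in the tails of cytokine mRNAs and hastens their decay. It was measured at 175, 170.3 and 177 TPM in the IR livers and at 98.0, 69.8 and 86.8 TPM in the 18KO livers. These groups lay far apart relative to their spread, with means of 174 ± 3.59 and 84.9 ± 14.2 TPM (SD, n = 3 each), a 2.05-fold lower mean and a log2 fold change of -1.05 ± 0.14 (SE, limma adjusted p = 0.000231). Without the second 18KO liver, the lowest of the 6, the log2 fold change was -0.92, short of the fold limit. After rescaling of the livers it was -2.08.

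Zc3h12a (chr4:125118423-125127840, minus strand), or Regnase-1, is a CCCH endonuclease that cuts inflammatory mRNAs such as that of Il6. It was at 18.8, 18.9 and 13.8 TPM in the IR livers and at 5.32, 4.32 and 5.21 TPM in the 18KO livers. Its mean was 3.48-fold lower in the 18KO livers (log2 fold change -1.77 ± 0.16 SE, limma adjusted p = 5.44e-05). Zc3h12b, of the same nuclease family, was at 0.0465, 0.0447 and 0.0484 TPM in the IR livers and at 0.150, 0.106 and 0.0944 TPM in the 18KO livers, on 7 to 25 reads a liver. The groups were apart, but its log2 fold change of 0.56 was under the fold limit. At this level the pseudocount weighs on the value, which was 1.14 with 0.01 TPM and 1.27 with limma-voom on recovered reads, past the limit in both. Zc3h4, a nuclear protein that restrains transcription of non-coding RNA, was at 1.69, 1.90 and 1.66 TPM against 3.93, 3.19 and 3.92 TPM. Its log2 fold change was 1.03 ± 0.15 (SE, limma adjusted p = 0.000421), and it was between 0.98 and 0.99 without 18KO liver 1, 18KO liver 3 or IR liver 3.

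Among 30 listed cytokine and other AU-rich mRNAs known to be bound by Zfp36 or cut by Zc3h12a, 15 were rows of the table. In the limma fit 14 fell and 1, Lif, rose, which was named after its values had been seen, beside 30% and 41.6% of all rows. The levels of the list were high, with 7 of the 15 genes above 10 TPM, all called lower, and 7 between 1 and 10 TPM, all called lower. Of the other protein-coding rows, 321 of 393 above 10 TPM and 287 of 710 between 1 and 10 TPM were called lower. The largest changes of the list were in Il10, an anti-inflammatory cytokine, at 17.1, 16.7 and 12 TPM against 0.442, 1.30 and 0.965 TPM, in the chemokine gene Ccl4 (log2 fold change -2.65) and in the chemokine gene Cxcl1 (log2 fold change -2.33). Of 31 genes of mRNA deadenylation and decay none was a row, where 11.1% of all protein-coding genes were. Zfp36, Zc3h12a and 14 of the 15 target mRNAs in the table were thus lower in the same livers, and whether these changes are connected was not tested.

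Of the 95 Zfp genes, 54 rose (56.8%) and 6 fell (6.32%), beside 41.6% and 30% of all rows. Without Zfp36, 6 were lower, of which 5 fell. Over all families the 10 lower genes had a median level of 3.46 TPM and the 102 higher genes of 0.390 TPM. Zfp949 (chr9:88548020-88571061, plus strand, GRCm38) had the largest fall of the 112 on the log2 scale, from 6.19, 6.24 and 5.70 TPM in the IR livers to 1.40, 1.39 and 1.03 TPM in the 18KO livers. This is a 4.75-fold lower mean (log2 fold change -2.17 ± 0.16 SE, limma adjusted p = 2.26e-05). Its groups were apart, which the rule for naming the largest falls had required.

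Zfp982 was at 3.36, 3.56 and 3.32 TPM against 1.20, 1.06 and 0.951 TPM (log2 fold change -1.59), with 11.9% of its 50-base words present in transcripts of other genes. Zfp395 was at 5.76, 5.53 and 4.06 TPM against 2.22, 1.62 and 2.25 TPM (log2 fold change -1.29). In both the groups were apart, by the same rule. Zfp217, whose human counterpart is an oncogene product found in repressor complexes, was at 5.31, 4.95 and 4.06 TPM against 2.07, 1.70 and 2.0 TPM (log2 fold change -1.27). Zfp1, the third most abundant of the 112, was at 7.16, 6.78 and 7.08 TPM against 3.47, 3.05 and 3.05 TPM (log2 fold change -1.11). Zfp810 was lower in all 3 18KO livers with a log2 fold change of -0.92, under the fold limit.

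The Zfp genes that rose came from low levels. Zfp7 (chr15:76879259-76892395, plus strand) had the largest rise on the log2(TPM + 0.1) scale, from 0.229, 0.211 and 0.281 TPM to 1.29, 1.25 and 1.70 TPM, a 5.88-fold higher mean (log2 fold change 2.15 ± 0.21 SE, limma adjusted p = 6.6e-05). The plain ratio of means was larger for the called genes Zfp964 (9.04-fold), Zfp882 (6.67-fold) and Zfp251 (6.29-fold), from IR means of at most 0.0939 TPM. In the IR livers Zfp964 had 4, 3 and 3 reads and Zfp882 had 1, 3 and 4, so these ratios are imprecise. The reads of Zfp7 and Zfp251 were not recovered, since value times exon length did not give whole reads in every liver. Neither gene was therefore in the limma-voom fit. Zfp7 shares 14.1% of its 50-base words with other transcripts and overlaps exons of Gm49527 on the same strand. Its neighbour Zfp251, whose start lies 7824 bases from that of Zfp7 on the opposite strand, was at 0.0641, 0.154 and 0.0635 TPM against 0.579, 0.543 and 0.650 TPM, with no shared words and no overlapping exon. This pair held the only genes still called higher after rescaling, with log2 fold changes of 1.32 for Zfp7 and 1.22 for Zfp251, and Zfp251 was named after its values had been seen.

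Zfp976 was at 0.179, 0.350 and 0.445 TPM in the IR livers and 1.27, 1.27 and 1.04 TPM in the 18KO livers (log2 fold change 1.66). Zfp59 was at 0.522, 0.157 and 0.258 TPM against 1.01, 1.10 and 1.12 TPM (log2 fold change 1.61). Of the 50-base words of their transcripts 20.4% and 52.4% were found in other genes, so reads may have been shared with near-identical genes. Zfp160 was at 0.463, 0.568 and 0.586 TPM against 1.79, 1.73 and 1.65 TPM (log2 fold change 1.52), with 3.05% shared words. The rule for the largest rises had required its groups to be apart, and its reads were not recovered. Zfp146, made almost wholly of fingers, was the most abundant higher gene, at 2.03, 2.29 and 3.29 TPM against 5.26, 5.28 and 4.99 TPM. Its log2 fold change of 1.03 was 0.89 without IR liver 1 and 0.97 without IR liver 2. Zfp57, a KRAB protein that keeps DNA methylation at imprinted genes through Trim28, was at 0.128, 0.0356 and 0.0293 TPM against 0.255, 0.328 and 0.280 TPM (log2 fold change 1.28), on 2 to 21 reads a liver. Its log2 fold change was 2.24 with a pseudocount of 0.01 TPM, 2.23 with limma-voom and 0.28 with a pseudocount of 1 TPM.

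**Figure D3:**
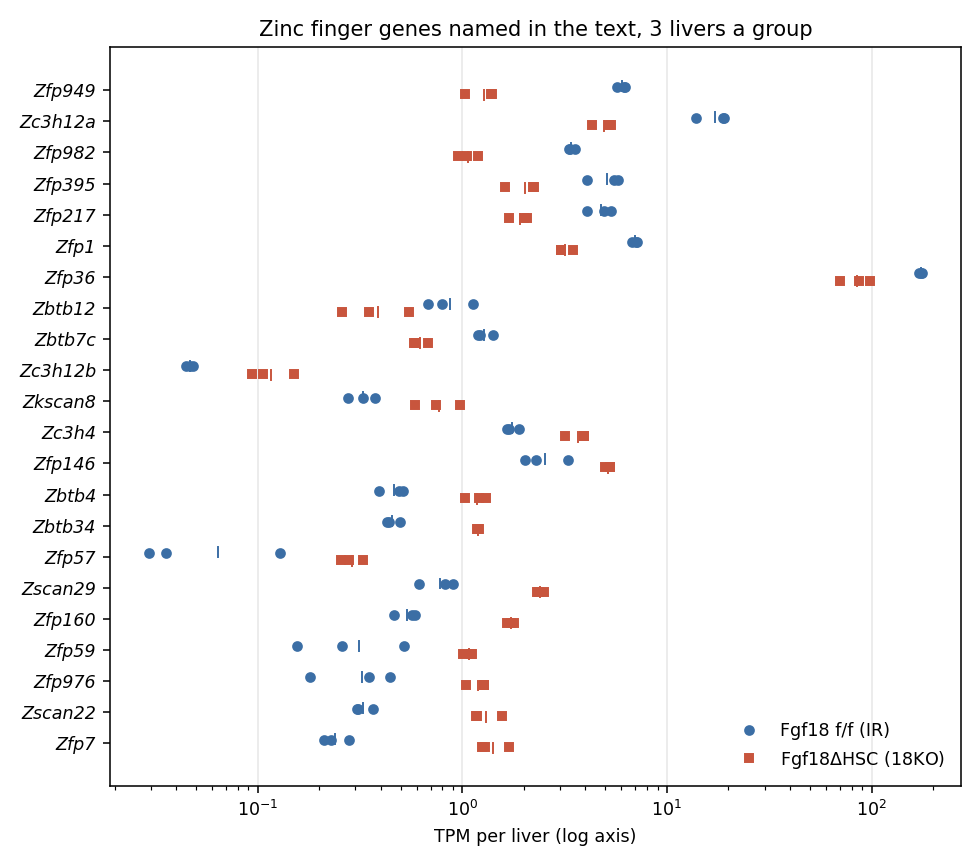
TPM per liver on a log axis for the 22 genes named by rule, ordered by log2 fold change. Blue circles are the 3 IR livers, red squares the 3 18KO livers and vertical ticks the group means. The largest called changes were chosen among genes whose groups do not overlap, and Zfp36 stands highest at between 69.8 and 177 TPM.

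The Zbtb genes moved both ways, with 3 called higher, 1 called lower and 3 not called. The 42.9% called higher lay near the 41.6% of all rows, and 14.3% were called lower beside 30% of all rows. Zbtb34 was at 0.498, 0.428 and 0.437 TPM against 1.19, 1.21 and 1.19 TPM (log2 fold change 1.23). Zbtb4, which binds methylated CpG, was at 0.492, 0.393 and 0.513 TPM against 1.03, 1.20 and 1.30 TPM (log2 fold change 1.17). The 18KO livers were higher in both, and the called Zbtb26 had a mean of 0.0799 against 0.265 TPM. Zbtb12 was the called gene that fell, from 0.684, 1.13 and 0.797 TPM to 0.549, 0.259 and 0.350 TPM (log2 fold change -1.02 ± 0.28 SE, limma adjusted p = 0.00877). Its change was short of the limit without IR liver 2 (-0.83), 18KO liver 2 (-0.82) or 18KO liver 3 (-0.98). Zbtb7c was lower in every 18KO liver, at 1.22, 1.20 and 1.42 TPM against 0.581, 0.595 and 0.684 TPM, and its log2 fold change of -0.94 was not called.

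All 6 Zscan genes were higher, and 4 rose, where 65.1% of all rows were higher and 41.6% called higher. Zscan22 was at 0.309, 0.308 and 0.365 TPM in the IR livers and at 1.17, 1.57 and 1.18 TPM in the 18KO livers (log2 fold change 1.71 ± 0.20 SE, limma adjusted p = 0.000139). Zscan29 was at 0.615, 0.826 and 0.898 TPM against 2.5, 2.31 and 2.38 TPM (log2 fold change 1.52). Groups apart were a condition for naming both genes. Together the Zscan genes summed to between 2.29 and 3.24 TPM in the IR livers and between 7.76 and 9.51 TPM in the 18KO livers. The single Zkscan gene, Zkscan8, was at 0.277, 0.328 and 0.374 TPM against 0.747, 0.978 and 0.590 TPM (log2 fold change 1.01 ± 0.23 SE, limma adjusted p = 0.00351). Its log2 fold change was 0.93 without IR liver 1 and 0.85 without 18KO liver 2.

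At the low end, 3 genes had fewer than 10 reads in every liver and at most 3 reads in each IR liver. Zfp536 had 1, 3 and 0 reads in the IR livers and 4, 8 and 8 in the 18KO livers. Zfp583 had 0, 1 and 0 against 1, 8 and 2 reads, so that the size of its difference rests on 18KO liver 2. Zbtb8b had no read in the IR livers and 1, 6 and 7 reads in the 18KO livers, at least 1.92-fold higher against a floor of 3 reads a liver. None of them was called. The other 109 genes had 10 or more reads in at least 1 liver.

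Lists of corepressor, heterochromatin and other zinc finger genes were also looked up, in a table that held 11.1% of all protein-coding genes. Of 28 KRAB corepressor and heterochromatin genes 2 were rows, and both were called, where 71.7% of all rows were called in either direction. The histone methyltransferase gene Setdb2 fell from 7.39, 7.42 and 8.49 TPM to 3.69, 3.19 and 3.73 TPM, and the chromatin remodeller gene Hells rose from 0.0363, 0.0685 and 0.154 TPM to 0.227, 0.318 and 0.330 TPM. Of 13 BTB corepressor genes Hdac7 alone was a row, with a log2 fold change of 1.14. In other families of zinc finger transcription factors 15 genes were rows, of which 4 rose and 3 fell, beside 41.6% and 30% of all rows, the largest changes being in Hic1 (log2 fold change 1.6), Egr2 (1.53) and Ikzf4 (-1.51).

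By chromosome the zinc finger rows were uneven. Chromosome 7 held 41 of them, 38.0% of its 108 annotated zinc finger genes, while 9.97% of its other protein-coding genes were rows. Chromosome 17 held 16, or 31.4% of 51, beside 9.75% of the others. Of the 42 zinc finger genes on chromosome 13, 4 were rows (9.52%, beside 10.8% of the others), and chromosomes 1 and 10 held none of their 10 and 12. On chromosome 7, 40 were higher and 1, Zfp36, was lower.

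**Figure D4:**
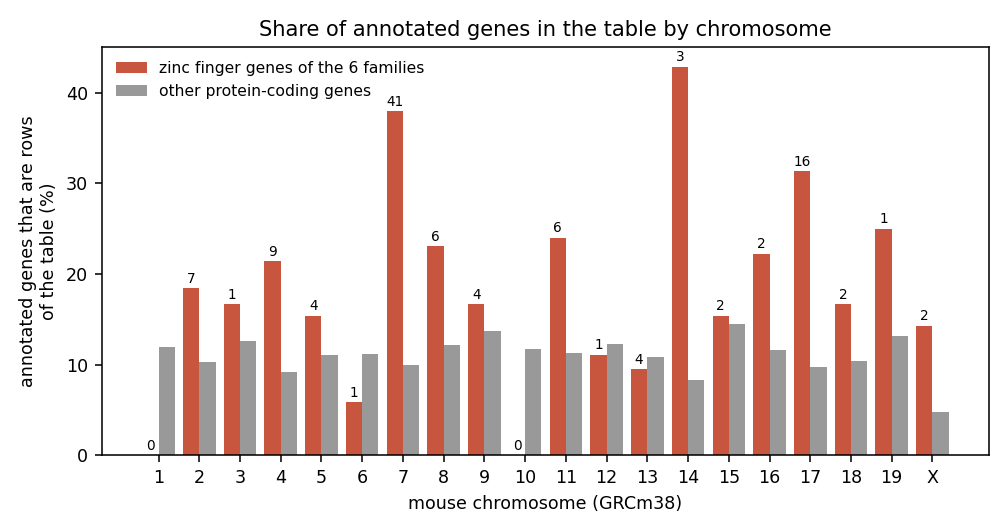
Share of annotated genes that were rows of the table, in percent, by mouse chromosome, for zinc finger genes of the 6 families (red) and other protein-coding genes (grey). Numbers above the red bars are the zinc finger rows, which are most numerous on chromosome 7 with 41 and chromosome 17 with 16.

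Many of these genes lie side by side. Zinc finger genes of the annotation were joined into clusters where gaps were at most 200 kb. In clusters of 5 or more genes 49 of 173 were rows, with 47 higher and 2 lower, and in clusters of 2 to 4 genes 33 of 126 were rows, all higher. Of 196 genes standing alone 30 were rows, with 22 higher and 8 lower. The cluster at chr7:29768552-30169750 had 8 of its 15 genes in the table, namely Zfp790, Zfp940, Zfp420, Zfp27, Zfp74, Zfp14, Zfp566 and Zfp146, all higher. At chr17:21383748-22456689, 8 of 18 were rows, again all higher, whereas at chr13:67038596-67827002 only Zfp65 was, of 23. Zfp60 and Zfp59, whose promoters are printed above, belong to the cluster at chr7:27689340-28014115, with 5 of 8 genes in the table. In all 21 pairs of directly adjacent zinc finger rows, made up of 37 genes of which some stand in more than 1 pair, both genes were higher, as were 91.1% of the 112 genes one by one.

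Closely related genes can share reads. Over 5% of the 50-base words of 21 zinc finger rows were found in transcripts of other genes, and over 20% for 8 of them, with the most in Zfp59. Of the 91 rows up to 5%, 82 were higher and 9 lower, and 49 rose (53.8%) and 7 fell (7.69%). Of the 21 rows over 5%, 14 rose and 1 fell, and the background over all rows was 41.6% and 30%. Exons of 30 rows overlapped another gene, 8 on the same and 24 on the opposite strand. Zfp882 and Zfp617 overlap on the same strand and start 27 bases apart, and their values, with means of 0.0368 against 0.245 TPM and of 1.44 against 3.38 TPM, may not be separate.

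The number of fingers was counted in the encoded proteins. In the longest coding sequence of each gene, the pattern of a C2H2 finger was found a median of 12 times for the 102 higher and 5.5 times for the 10 lower genes, and 8 times for the 383 zinc finger genes outside the table. These sets mix families with many and few C2H2 fingers, and within the Zfp family the median was 12 for the 95 rows and 10 for the 299 genes outside the table. The share of annotated genes in the table was 13.3% with 0 to 4 fingers, 22.1% with 5 to 9, 27.0% with 10 to 14 and 31.2% with 15 or more, and all 24 rows of the last class were higher. A KRAB-type motif was found in 50 of the 112 rows (44.6%) and in 95 of the 383 others (24.8%), or 52.6% and 31.8% within the Zfp family. Of the 50 rows 46 were higher (92%) and 4, Zfp1, Zfp810, Zfp949 and Zfp982, were lower. The 62 rows without the motif were near this, with 56 higher (90.3%) and 6 lower. The pattern was found in none of the 11 Zkscan genes, whose name stands for a KRAB domain, so its counts are lower limits.

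**Figure D5:**
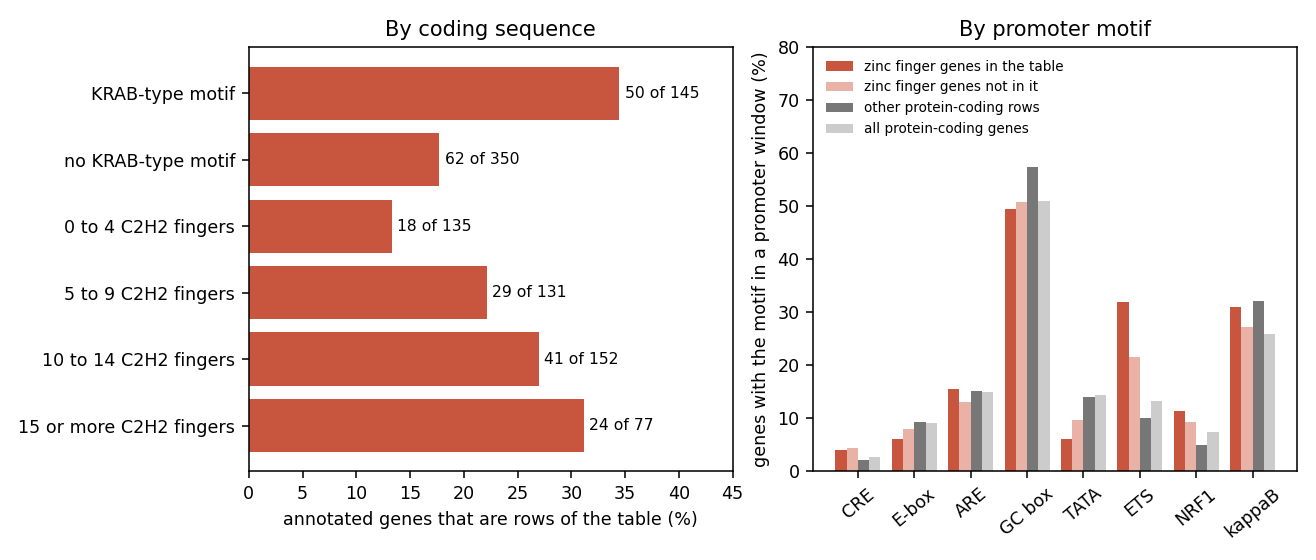
Left, percent of annotated zinc finger genes of the 6 families that were rows of the table, by KRAB-type motif and number of C2H2 fingers, with 50 of 145 and 62 of 350 for genes with and without the motif. Right, percent of genes with each of the 8 motifs in a promoter window for 4 sets of genes, where ETS letters were in 32.0% of the zinc finger rows and 13.4% of protein-coding genes.

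Markers of liver cell types also differed between the groups, in a table where 65.1% of all rows were higher and 41.6% called higher. Of 7 stellate cell markers 5 were rows (Des, Lrat, Reln, Pdgfrb and Acta2), all higher and 3 of them called, with a summed level between 1.67 and 1.93 TPM in the IR livers and between 5.50 and 7.87 TPM in the 18KO livers. Of 5 endothelial markers Lyve1 and Gpr182 were called higher, and of 5 macrophage markers Cd68 and Adgre1 were higher with 1 called. Cyp2e1 was the 1 row of 6 hepatocyte markers and was called lower, with a sum between 1660 and 1955 TPM against between 461 and 686 TPM. Over all rows 30% were called lower, and 321 of the 393 protein-coding rows above 10 TPM outside the zinc finger genes. Of 5 neutrophil and 6 lymphocyte markers none was a row, while of 4 cholangiocyte markers 2 were higher and 1 lower. In liver tissue, fewer cells of a type and less RNA per cell cannot be told apart, and the part of cell composition in the zinc finger changes was not tested.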

How the data were processed

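RNA was isolated with Trizol from 6 livers, 3 a group, and made into stranded mRNA libraries. Per the submitters' processing notes, the authors trimmed reads with cutadapt 2.5, aligned them to mm10 with HISAT2 2.1.0 and counted them with featureCounts 1.6.3, whose strand setting is not given in the sources used here. The deposited table has 3201 genes with 1 value a liver. Its header names no unit, and the values were taken as TPM made by the authors. Value times GENCODE M21 exon length gave whole reads within 0.02 for 92.2% to 92.6% of values per liver. Such a match shows scaling by exon length but cannot tell TPM from other units scaled that way. Total depth per liver is unknown. Recovered reads on the zinc finger genes numbered 17325 to 25610 in the IR livers and 12151 to 18120 in the 18KO livers. The authors' columns of fold changes, p-values and direction from DESeq2 were not used, other than to learn that genes had been selected on them.

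Groups were compared with limma 3.58.1 in R 4.3.3 (trend, pseudocount 0.1 TPM, no covariate) over all 3201 rows, with Benjamini-Hochberg adjustment. The test was tried on simulated data. Nothing in the labels says that the livers came from separate litters or days, so p-values measure the spread between these livers. The naming rule, lists, motifs and tests were chosen with earlier results of these data known. Genes were named in the text if they were, in the Zfp family, the 4 largest called changes in each direction with at least 1 TPM in a group and groups apart; in other families, the 2 largest; the 5 most abundant; or on a list of known roles (of 40 genes, 7 were rows, 3 higher and 4 lower, with 2 and 3 called). The background for that list was 41.6% called higher and 30% called lower over all rows. Of other lists the 3 largest called changes were named. Zfp251, Zfp442, Zfp810, Zfp882, Zfp964, Zbtb26, the low-read genes and genes named by position were added afterwards. Coding sequences of GENCODE were translated for motif counts, and no protein sequence was used otherwise. Alternatives were other pseudocounts, a level filter, rescaled livers, no trend, no fold limit, protein-coding rows alone, limma-voom on recovered reads, a replicate block and leaving out each liver.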

Additional observations from a re-analysis of the deposited data

How the results depend on the processing

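The count of zinc finger genes called higher in 18KO livers was 63 and of those called lower 8, with a median log2 fold change of 1.03. With a pseudocount of 1 TPM these were 1 and 5 with a median of 0.33, and with 0.01 TPM 99 and 9 with 1.37. Over all rows 8.31% and 17.7% were called at 1 TPM, and 62.3% and 32.7% at 0.01 TPM, so the share of zinc finger genes called higher was below that of all rows at 1 TPM (0.893%) and above it at 0.01 TPM (88.4%). Rescaled livers gave 2 and 10 with 0.28, and a mean of at least 1 TPM left 13 and 7 of 25 genes, which were fewer genes by construction. Over all rows tested these settings called 8.78% and 34.8%, and 36.7% and 55.3%. With no limit on the fold change 100 and 10 were called, beside 62.6% and 34.6% of all rows. The fit by limma-voom, run on recovered reads for 102 genes, gave 91 and 9 (89.2% and 8.82%) with a median of 1.40. Over all rows in that fit 64.4% and 32.5% were called, with a median of 1.29. A larger pseudocount shrinks the log2 fold changes of low-level genes by construction. Rescaling divided the IR livers by 0.570 to 0.653 and the 18KO livers by 1.12 to 1.36, which lowers log2 fold changes by construction. Which pseudocount and scale fit these livers was not tested. Leaving out 1 liver at a time gave 53 to 67 higher and 7 to 8 lower genes with medians from 0.99 to 1.10. Without 18KO liver 2, 47.3% of the zinc finger genes were called higher beside 43.0% of all rows. Without 18KO liver 3 these shares were 58.9% and 37.6%. The share called lower was 6.25% to 7.14% when a liver was left out, beside 28.3% to 30.5% of all rows. No mean-variance trend and protein-coding rows alone each gave 63 and 8. A replicate block also gave 63 and 8. Over all rows these settings called 40.4% to 41.8% higher and 29.1% to 30.1% lower. Deviations of same-numbered livers correlated at r = 0.0574, 0.00597 and 0.0307, so no pairing by replicate number was seen. With 3 livers a group this check cannot exclude a pairing by day or litter. Of all 112 genes, Zfp462, Zfp646 and Zfp994 alone changed sign after rescaling, to log2 fold changes of -0.022, -0.0050 and -0.0021. Each was smaller in size than its SE, so these genes showed almost no difference on that scale, as did several genes that stayed above 0. Of the 22 genes named by rule, whose direction the choice of large changes largely fixed, 15 lost the call with a pseudocount of 1 and 11 after rescaling. Most higher genes lie at or below 1 TPM, where few reads and the pseudocount limit the precision of a fold change.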
